A study of Mus musculus with 6 samples.

Results

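The expression of 36 genes of antioxidant defence, glutathione metabolism and metal binding was examined in the optic nerve of adult mice after deletion of Nf1 in cells that express an inducible Cre recombinase. The genes were taken by name from the deposited gene counts, and all 36 were found among the 24062 genes of the files. Mutant animals carried the tamoxifen-inducible PlpCreERT2 transgene together with homozygous floxed Nf1 alleles (PlpCreERT2;Nf1flox/flox, 3 libraries). Controls had no Cre, and were Nf1flox/flox (control library 1) or Nf1flox/+ (control libraries 2 and 3). Both groups had received tamoxifen as adults over 2 months old, and whole optic nerves were taken 1 month later. The transgene is active in oligodendrocytes and, outside the central nervous system, in Schwann cells. Whether the libraries stem from different animals is not given in the labels. Any pair of control libraries differed in genotype or in sex markers (given below), so the controls stem from different animals. The mutant libraries were alike in both, so for them the question is open. The p-values rest on library-to-library spread alone, some of which, among the mutants, may be technical only.

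Cells make superoxide and hydrogen peroxide as by-products of respiration. Superoxide dismutases convert superoxide to hydrogen peroxide, which catalase, glutathione peroxidases and peroxiredoxins then reduce. Glutathione reductase and thioredoxin reductases restore the reducing partners. The transcription factor Nrf2, encoded by Nfe2l2 and held in check by Keap1, binds antioxidant response elements and activates many of these genes. Metallothioneins bind zinc and copper, and are induced by metals through metal response elements and by glucocorticoids. In the brain Mt1 and Mt2 are made mainly by glia, and Mt3 is a nervous system form.

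The regulatory sequence next to 3 of the genes is shown as an example. These are Mt1 and Mt2, neighbours on chromosome 8, and Srxn1, the gene with the highest log2 fold change of the 36. Among the mutants, mutant library 2 had the highest level of Mt1 and Mt2, as it did for 29 of the 36 genes. A link between these sequences and the values was not tested. Each sequence runs 5′ to 3′ on the plus strand from 250 bases before to 50 bases after the annotated start (RefSeq, GRCm38.p6, the assembly of mm10). Capitals mark matches on either strand to the antioxidant response element core, searched as TGACNNNGC and TGAGNNNGC, or to the metal response element core, searched as TGCACNC and TGCGCNC.
Mt1 (chr8:94178839-94179138): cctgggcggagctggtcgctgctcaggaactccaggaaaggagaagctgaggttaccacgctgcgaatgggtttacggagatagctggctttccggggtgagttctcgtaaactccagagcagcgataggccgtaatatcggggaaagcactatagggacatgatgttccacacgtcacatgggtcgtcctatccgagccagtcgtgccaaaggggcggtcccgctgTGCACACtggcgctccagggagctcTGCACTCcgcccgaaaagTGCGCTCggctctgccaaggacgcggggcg
Mt2 (chr8:94172368-94172667): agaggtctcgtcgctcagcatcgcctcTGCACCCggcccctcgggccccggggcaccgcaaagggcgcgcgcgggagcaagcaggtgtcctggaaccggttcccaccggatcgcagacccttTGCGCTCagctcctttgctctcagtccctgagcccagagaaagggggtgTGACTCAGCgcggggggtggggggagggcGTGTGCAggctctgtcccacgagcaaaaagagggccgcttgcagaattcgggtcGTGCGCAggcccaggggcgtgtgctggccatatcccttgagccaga
Srxn1 (chr2:152105274-152105573): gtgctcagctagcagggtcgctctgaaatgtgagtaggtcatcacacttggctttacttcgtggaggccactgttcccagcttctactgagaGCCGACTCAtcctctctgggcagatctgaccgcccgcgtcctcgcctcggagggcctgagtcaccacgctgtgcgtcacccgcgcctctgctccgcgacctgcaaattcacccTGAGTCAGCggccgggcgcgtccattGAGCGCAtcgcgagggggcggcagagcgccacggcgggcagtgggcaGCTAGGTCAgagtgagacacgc

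The Mt1 window held 3 metal response element cores and no antioxidant core. The Mt2 window held 4 metal response element cores and 1 antioxidant core, TGACTCAGC, which begins 79 bases before the start. Srxn1 had 3 antioxidant cores, of which TGAGTCAGC begins 45 bases before the start, and 1 metal core. No matches of the different motifs overlap in these 3 windows. At least 3 metal cores occur in 1.97% of the 32851 RefSeq promoter windows of this length, and at least 3 antioxidant cores in 0.63%. Promoter windows were matched for 30 of the 36 genes, 38 windows in all. At least 1 antioxidant core lies in 28.9% of those 38 windows, against 27.8% of all windows, and at least 1 metal core in 26.3%, against 25.7%. At least 3 metal cores lie in 7.89% of the 38, those of Mt1, Mt2 and Gclm. At least 2 antioxidant cores lie in 7.89%, those of Srxn1, Prdx1 and Gstp1, against 4.68% of all windows. Prdx1 and Gstp1 had negative log2 fold changes, -0.46 and -0.63. A match of letters describes the sequence and not a bound site.

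Total counts ranged from 13555756 to 19012262 in the mutant libraries and from 21307855 to 23662698 in the controls. The lowest count of any of the 36 genes in any library was 26, for Hmox1 in mutant library 3, and all 36 passed the filter on low counts. Nf1 itself had 304, 226 and 433 CPM in mutant libraries 1, 2 and 3, against 394, 400 and 337 CPM in control libraries 1, 2 and 3. CPM scale each count to the TMM-adjusted library size. The log2 fold change of Nf1 was -0.23 (SE 0.28, edgeR adjusted p 0.703), from counts that do not separate floxed exons from the others. Mutant library 2 stood apart from mutant libraries 1 and 3. Across all genes tested, which are not independent replicates, its log2 CPM correlated with those of the other mutants at a Pearson's r of 0.909 and 0.889, and with the controls at 0.932 to 0.943. Calls are therefore given both over the 6 libraries and without it. The choice to leave it out came from these same data. Leaving out the mutant nearest to the controls favours calls, with 4551 genes called in place of 537. The p-values without it are therefore descriptive only. Counts of Xist were 30602 to 51760 in the mutant libraries, and 58, 72727 and 34 in control libraries 1, 2 and 3. Y-linked genes were counted only in control libraries 1 and 3, so sex markers differed between the groups.

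None of the 36 genes passed the test between mutants and controls in the 6 libraries (edgeR quasi-likelihood test, Benjamini-Hochberg adjusted p under 0.05 over 16315 genes). Over all genes tested, 2.95% passed with mutants higher and 0.337% with mutants lower, 3.29% in all. Of the 36, 1 gene had an unadjusted p under 0.05 with mutants higher and 6 with mutants lower, against 11.2% and 8.02% of all genes tested, 19.2% in either direction. The median log2 fold change of the 36 was -0.39, with a range of -1.56 to 0.64, and 29 of 36 were negative, against a median of -0.0017 and 50.1% negative over all genes tested. Groups did not overlap in 5 genes with mutants lower (13.9%, against 11.5% of all genes tested) and in 2 with mutants higher (5.56%, against 12.5%). Over all genes 24% did not overlap in either direction, and the lower share of the 36 is near its background. DESeq2 called 3 of the 36, Sod3, Slc7a11 and Nqo1, all lower (adjusted p 0.031, 0.0206 and 0.0336), where it called 2.73% of all genes lower and 6.45% higher. By limma-voom 0 of the 36 passed, and with sample quality weights 12 passed, 1 higher and 11 lower, where 12.2% of all genes passed higher and 12.4% lower.

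**Figure D1:**
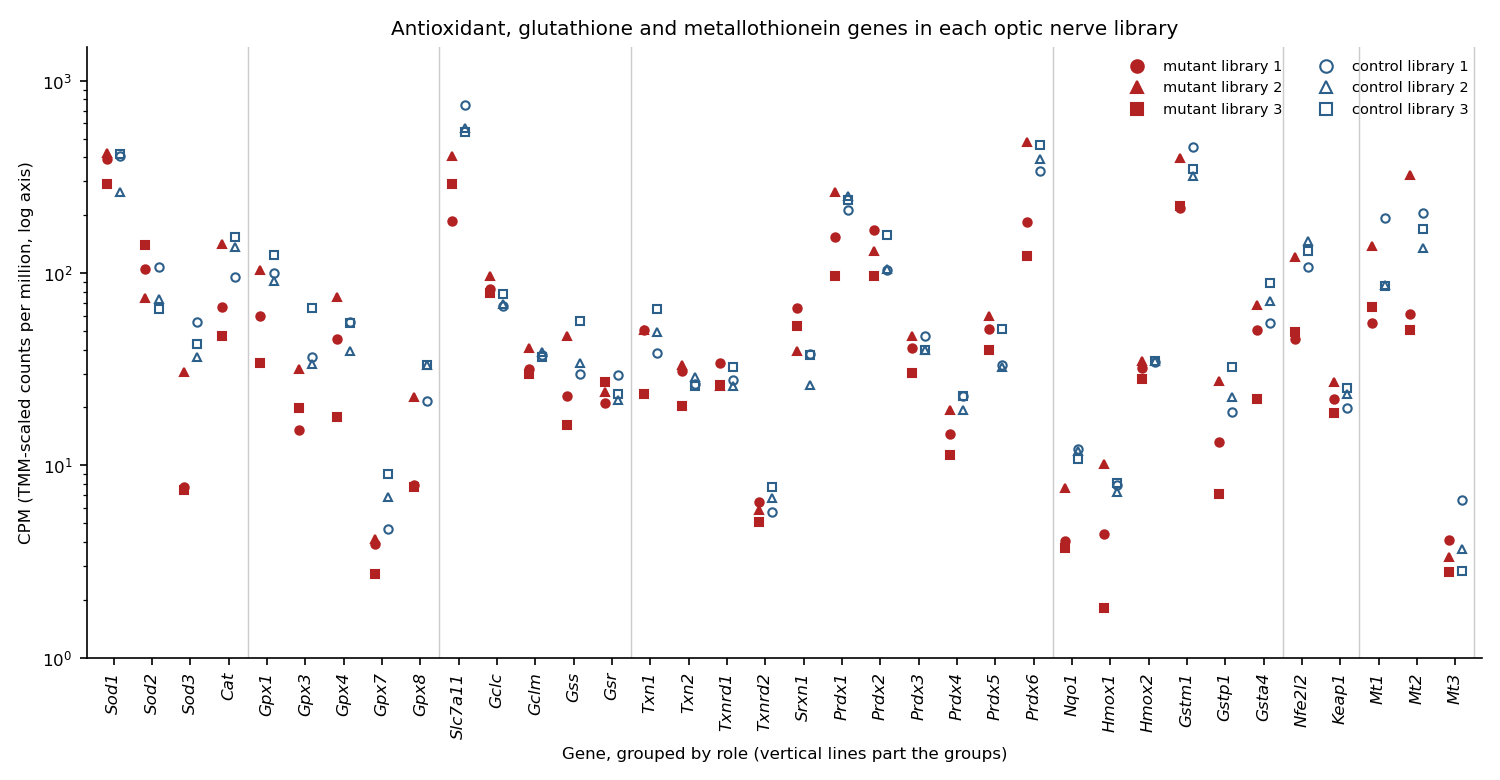
CPM of the 36 genes on a log axis, 1 point per library, with mutant libraries as filled red symbols to the left of control libraries as open blue symbols. Levels span from 1.81 CPM for Hmox1 in mutant library 3 to 749 CPM for Slc7a11 in control library 1, and for 29 of the 36 genes mutant library 2, drawn as a filled triangle, is the highest of the mutant libraries.

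Without mutant library 2, 16 of the 36 genes passed, 1 higher (2.78%) and 15 lower (41.7%), against 13.2% higher and 13.8% lower over the 16857 genes tested there, 27% in all. The median log2 fold change of the 36 was then -0.75. In mutant libraries 1 and 3 together, 21 of 36 genes lay below every control (58.3%) and 2 above every control (5.56%), against 27.3% and 25.8% of all genes tested. Mutant library 2 was within the range of the controls for 17 genes, below it for 5 and above it for 14 (47.2%, 13.9% and 38.9%), against 41.2%, 29.5% and 29.3% of all genes tested. It was the highest of the mutant libraries for 29 of 36 genes (80.6%), against 38.9% of all genes tested. The summed level of the 36 genes was 2358, 3830 and 2008 CPM in mutant libraries 1, 2 and 3, against 3803, 3289 and 3780 CPM in control libraries 1, 2 and 3. The sum of mutant library 2 is the highest of the 6, and those of mutant libraries 1 and 3 are the lowest. In RNA of whole tissue, fewer cells of a type and less RNA per cell cannot be told apart.

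**Figure D2:**
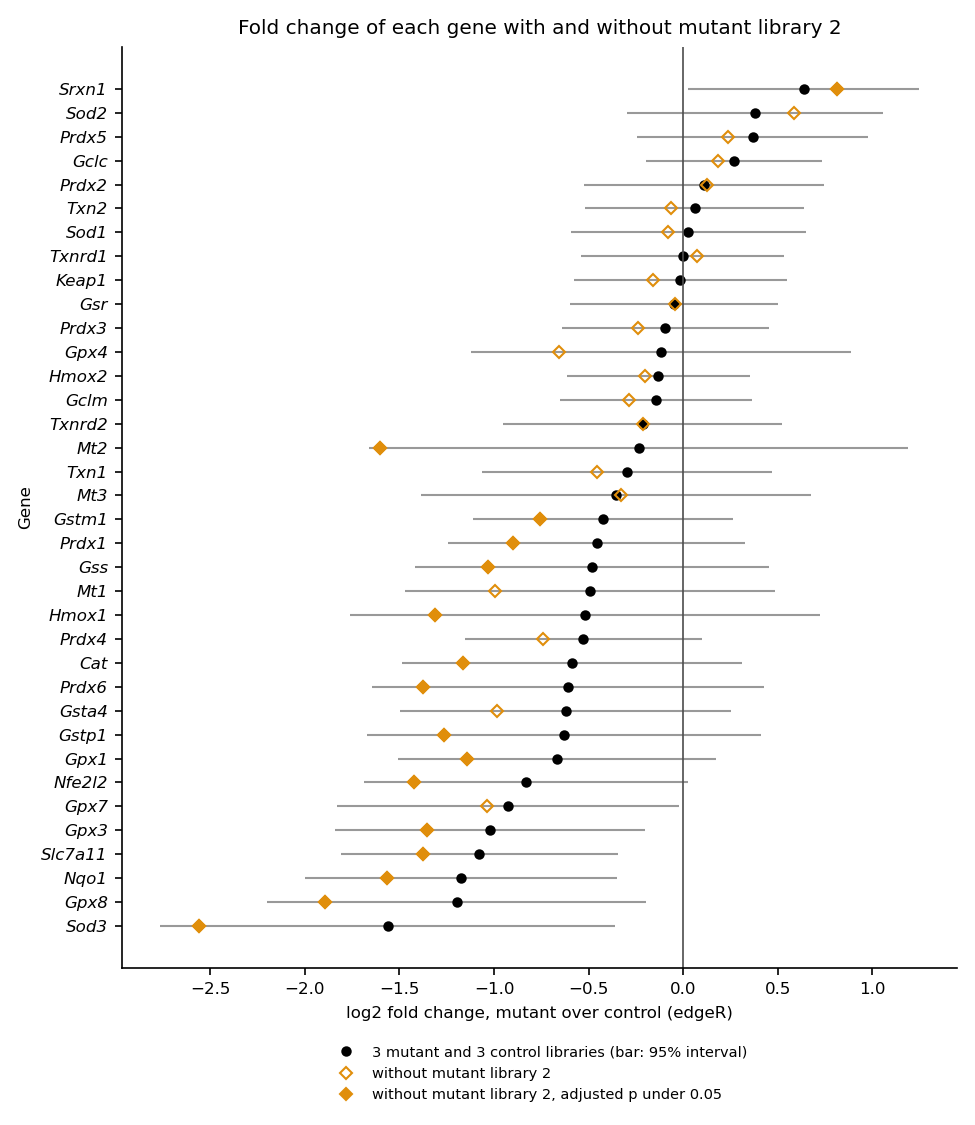
Log2 fold change of each gene, mutant over control, from all 6 libraries (black points with 95% intervals) and without mutant library 2 (orange diamonds, filled where the adjusted p is under 0.05). Sod3 lies lowest in both, at -1.56 and -2.56, and Srxn1 highest in both, at 0.64 and 0.81.

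Among the enzymes that act on superoxide, the extracellular form had the lowest log2 fold change, and the forms were not tested against each other. Sod3, the secreted superoxide dismutase of the extracellular matrix (chromosome 5, 52363804 to 52369738, plus strand, mm10 as for all positions of genes), had 7.72, 30.6 and 7.47 CPM in mutant libraries 1, 2 and 3, against 55.4, 36.6 and 42.9 CPM in control libraries 1, 2 and 3. All mutant libraries lay below all controls, mutant library 2 by the least. The means were 15.3 ± 13.3 CPM in mutants and 45.0 ± 9.58 CPM in controls (SD, n = 3 each), which gave a log2 fold change of -1.56 (SE 0.53, 95% interval -2.76 to -0.36, edgeR adjusted p 0.156). Without mutant library 2 it fell by 2.56 on the log2 scale (SE 0.28, edgeR adjusted p 0.000122), and it ranged from -1.68 to -1.24 with adjusted p of 0.298 to 0.434 when any other library was left out.

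Sod1, the cytosolic copper-zinc enzyme (chromosome 16, 90220742 to 90226324), was the highest of the 36 genes per length of exon, at 568 ± 107 FPKM in mutants and 558 ± 129 FPKM in controls (CPM divided by exon length in kilobases, SD, n = 3 each). It had 392, 423 and 290 CPM in mutants, against 405, 265 and 414 CPM in controls, so the groups overlapped. The log2 fold change of Sod1 was 0.03, with a 95% interval of -0.59 to 0.65. Sod2, the manganese enzyme of mitochondria, had 105, 74.6 and 140 CPM in mutants, against 107, 73.0 and 64.8 CPM in controls. These groups overlapped as well, and the log2 fold change of Sod2 was 0.38 (95% interval -0.30 to 1.06), or 0.59 without mutant library 2 (adjusted p 0.117). Cat, the peroxisomal catalase that degrades hydrogen peroxide, had 66.9, 142 and 47.2 CPM in mutants, against 95.1, 136 and 154 CPM in controls. Mutant library 2 lay within the control range and the other mutants below it. For Cat the log2 fold change came to -0.59 (SE 0.40, adjusted p 0.46 by edgeR), and it fell by 1.16 without mutant library 2 (adjusted p 0.00777).

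Of the 5 genes of the glutathione peroxidase family, all had negative log2 fold changes and 0 passed, with a median of -0.93. Without mutant library 2, 3 of the 5 fell (60%, against 13.8% of all genes tested there), with a median of -1.14 over the 5. Gpx8, a peroxidase of the endoplasmic reticulum (chromosome 13, 113042763 to 113046388), had 7.93, 22.7 and 7.74 CPM in mutants, against 21.5, 33.1 and 33.4 CPM in controls. Mutant library 2 was above control library 1, so the groups overlapped. For Gpx8 the log2 fold change came to -1.20 (SE 0.44, adjusted p 0.186 by edgeR), and it fell by 1.90 without mutant library 2 (adjusted p 0.000927).

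Gpx3, the secreted plasma form (chromosome 11, 54902854 to 54910382), had 15.3, 31.7 and 20.0 CPM in mutants, against 36.5, 33.5 and 65.9 CPM in controls. The groups did not overlap, although mutant library 2 and control library 2 were close. For Gpx3 the log2 fold change came to -1.02 (SE 0.36, adjusted p 0.174 by edgeR), which became -0.65 without control library 3. Gpx1, the main cytosolic form, had 59.9, 104 and 34.3 CPM in mutants, against 99.5, 90.8 and 124 CPM in controls. It fell by 1.14 without mutant library 2 (adjusted p 0.01), as Gpx3 did by 1.35 (adjusted p 0.0114).

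Gpx7, another endoplasmic reticulum form, had 3.88, 4.16 and 2.72 CPM in mutants, against 4.66, 6.84 and 8.96 CPM in controls, without overlap. Its log2 fold change of -0.93 passed neither over the 6 libraries (edgeR adjusted p 0.25) nor with mutant library 2 left out (0.0958). Gpx4, which reduces lipid peroxides in membranes and protects cells from ferroptosis, had 45.2, 75.4 and 17.9 CPM in mutants, against 55.5, 39.5 and 55.2 CPM in controls. The mutants held both the highest and the lowest library for Gpx4, and its log2 fold change of -0.12 had a 95% interval of -1.12 to 0.89. It was -0.66 without mutant library 2 (edgeR adjusted p 0.207). Transcripts of Gpx4-ps2 match Gpx4 over 733 bases at 99.7% identity, so reads of Gpx4 are uncertain.

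**Figure D3:**
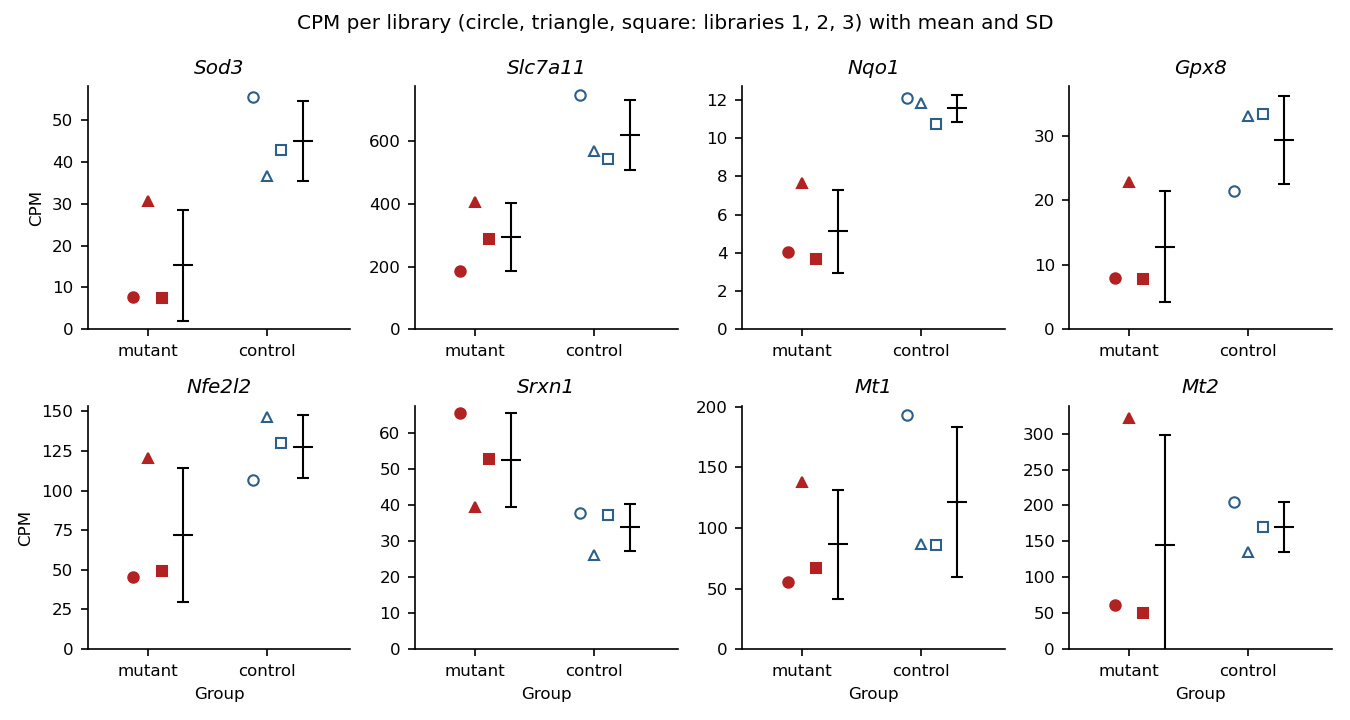
CPM of 8 genes by library, each panel on its own linear axis from 0, with the mutant libraries to the left of the controls and the mean with its SD beside each group (the lower bar of the mutants for Mt2 reaches 0 and is cut there). In Sod3, Slc7a11 and Nqo1 all mutant libraries lie below all controls, in Srxn1 all lie above, and in Mt2 mutant library 2 is the highest of the 6 at 322 CPM.

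Of the 5 genes that supply glutathione none passed over the 6 libraries, with a median of -0.14. Without mutant library 2, 2 of the 5 fell (40%, against 13.8% of all genes tested there). Slc7a11, the cystine-glutamate exchanger that imports the cysteine source for glutathione (chromosome 3, 50364936 to 50443613, minus strand), had 187, 405 and 289 CPM in mutants, against 749, 568 and 545 CPM in controls. All mutants lay below all controls. Its log2 fold change was -1.08 (SE 0.32, 95% interval -1.81 to -0.35, edgeR adjusted p 0.116), and it fell by 1.37 without mutant library 2 (adjusted p 0.00257). Its annotated transcripts share 373 bases with the tubulin gene Tuba1b at 96.2% identity, so part of its counts is uncertain. The catalytic and modifier subunits of glutamate-cysteine ligase, which carries out the rate-limiting step, passed in neither fit. Gclc, the catalytic subunit, had 82.9, 96.2 and 78.6 CPM in mutants, against 67.1, 69.3 and 77.4 CPM in controls. Each mutant was above each control for Gclc, by a log2 fold change of 0.27 whose 95% interval was -0.20 to 0.73 (0.19 without mutant library 2).

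Gclm, the modifier subunit, had 31.8, 40.8 and 29.9 CPM in mutants, against 37.6, 39.0 and 36.5 CPM in controls, and a 95% interval of -0.65 to 0.36 (-0.28 without mutant library 2). Gss, glutathione synthetase, had 22.8, 47.2 and 16.3 CPM in mutants, against 30.0, 34.3 and 56.1 CPM in controls. Mutant library 2 was within the controls for Gss and the other mutants below them, and Gss fell by 1.03 without mutant library 2 (edgeR adjusted p 0.0336). Gsr, glutathione reductase, had 21.1, 24.1 and 27.1 CPM in mutants, against 29.7, 21.8 and 23.4 CPM in controls, with a 95% interval of -0.60 to 0.50 (-0.04 without mutant library 2).

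The thioredoxin and peroxiredoxin group had the median nearest to 0, at -0.09 over 11 genes with 0 passing, and it includes Srxn1, the only one of the 36 that passed upward without mutant library 2. Srxn1, sulfiredoxin, which restores over-oxidised peroxiredoxins (chromosome 2, 152105524 to 152111376), had 65.5, 39.4 and 52.9 CPM in mutants, against 37.9, 26.3 and 37.3 CPM in controls. All mutants lay above all controls, mutant library 2 only narrowly. The log2 fold change of Srxn1 was 0.64 (SE 0.27, 95% interval 0.03 to 1.25, edgeR adjusted p 0.242). It rose by 0.81 without mutant library 2 (adjusted p 0.0283) and by 0.93 with sample quality weights in limma-voom (adjusted p 0.0165).

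Prdx6, a peroxiredoxin abundant in astrocytes that reduces phospholipid peroxides, had 184, 479 and 122 CPM in mutants, against 341, 391 and 465 CPM in controls. Mutant library 2 was the highest of the 6 libraries and the other mutants were the lowest. The log2 fold change of Prdx6 came to -0.61 (SE 0.46, adjusted p 0.509 by edgeR), and it fell by 1.38 without mutant library 2 (adjusted p 0.00187). Prdx1, a cytosolic form and known Nrf2 target, had 154, 263 and 96.6 CPM in mutants, against 212, 253 and 240 CPM in controls. It showed the same order, and it fell by 0.90 without mutant library 2 (adjusted p 0.0162).

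The remaining 8 genes of this group passed in neither fit. Prdx2 had 169, 130 and 97.0 CPM in mutants, against 104, 105 and 157 CPM in controls, and Prdx5 had 51.4, 59.7 and 40.0 CPM, against 33.2, 32.6 and 51.1 CPM. Groups overlapped for both. Transcripts of the protein-coding gene Trmt112 match Prdx5 over 360 bases at 100% identity, so the counts of Prdx5 may be affected. The mitochondrial pair Prdx3 and Txn2 had log2 fold changes of -0.09 and 0.06, the secretory pathway form Prdx4 had -0.53 (-0.74 without mutant library 2, adjusted p 0.0593), and the cytosolic carrier Txn1 had -0.30. The reductases Txnrd1 and Txnrd2, which pass electrons to Txn1 and Txn2, had -0.0021 and -0.21, and 25.8 to 34.1 and 5.09 to 6.47 CPM in mutants, against 25.8 to 32.6 and 5.75 to 7.68 CPM in controls. The 95% interval of Txnrd1, -0.54 to 0.53, does not show that its level was the same in both groups.

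Genes of quinone and haem breakdown and of glutathione conjugation were negative in 6 of 6 cases, with a median of -0.57 and 0 passing. Nqo1, a quinone reductase and a widely used marker of Nrf2 activity (chromosome 8, 107388225 to 107403205, minus strand), had 4.05, 7.63 and 3.70 CPM in mutants, against 12.1, 11.8 and 10.7 CPM in controls. All mutants lay below all controls, and the SD of the controls was 0.709 CPM. Its log2 fold change was -1.17 (SE 0.36, 95% interval -2.00 to -0.35, edgeR adjusted p 0.127), and it fell by 1.57 without mutant library 2 (adjusted p 0.00432). Hmox1, the inducible haem oxygenase, had 4.37, 10.1 and 1.81 CPM in mutants, against 7.92, 7.30 and 8.09 CPM in controls. Mutants held both extremes for Hmox1, and it fell by 1.31 without mutant library 2 (adjusted p 0.0453).

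Hmox2, the constitutive haem oxygenase, had 32.2, 35.1 and 28.0 CPM in mutants, against 34.4, 35.0 and 35.0 CPM in controls. It overlaps exons of Cdip1 on the opposite strand over 29.2% of its exon length, and its counts are uncertain to that extent. The 3 glutathione transferases had lower values in mutant libraries 1 and 3 than in any control. Gstm1, the most abundant of them, had 217, 395 and 223 CPM in mutants, against 453, 321 and 346 CPM in controls, and it fell by 0.76 without mutant library 2 (edgeR adjusted p 0.023). Gstp1 had 13.3, 27.5 and 7.12 CPM in mutants, against 18.9, 22.7 and 32.5 CPM in controls, and fell by 1.26 (adjusted p 0.0213), but Gstp2 matches it over 707 bases at 98.2% identity, so reads of this pair may be shared. Gsta4, which conjugates lipid peroxidation products, had 50.3, 68.0 and 22.3 CPM in mutants, against 55.2, 71.9 and 89.3 CPM in controls, and did not pass without mutant library 2 (adjusted p 0.056).

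Neither the Nrf2 gene nor that of its inhibitor passed over the 6 libraries. Nfe2l2 (chromosome 2, 75675519 to 75704641, minus strand) had 45.4, 121 and 49.5 CPM in mutants, against 107, 146 and 130 CPM in controls. Mutant library 2 was within the control range, and the other mutants lay below it. For Nfe2l2 the log2 fold change came to -0.83 (SE 0.38, adjusted p 0.274 by edgeR), and it fell by 1.42 without mutant library 2 (adjusted p 0.0009). Keap1, the adaptor that targets Nrf2 for degradation, had 22.2, 27.3 and 18.6 CPM in mutants, against 20.0, 23.5 and 25.3 CPM in controls, a log2 fold change of -0.01 with a 95% interval of -0.58 to 0.55, and was at -0.16 without mutant library 2 (adjusted p 0.69).

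Of the 3 metallothionein genes none passed, and Mt2 had the highest coefficient of variation of the 36 genes within the mutants. Mt2 (chromosome 8, 94172618 to 94173567), with 4 metal cores in its promoter window, had 60.9, 322 and 50.5 CPM in mutants, against 205, 135 and 170 CPM in controls. Mutant library 2 was the highest of the 6 and the other mutants the lowest, and the coefficient of variation was 106.5% in mutants and 20.7% in controls. The log2 fold change of Mt2 was -0.23 with a 95% interval of -1.66 to 1.19, and it fell by 1.60 without mutant library 2 (SE 0.24, edgeR adjusted p 0.000698). Without mutant library 1 or mutant library 3 the sign changed, to 0.13 and 0.17.

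Mt1 (chromosome 8, 94179089 to 94180327) had 55.0, 138 and 66.8 CPM in mutants, against 193, 86.5 and 85.7 CPM in controls. Control library 1, the only Nf1flox/flox control, was the highest for Mt1, and without it the log2 fold change was 0.02 in place of -0.49 (edgeR adjusted p 0.988 and 0.58). With mutant library 2 left out Mt1 was at -0.99 (adjusted p 0.0597). Mt3 (chromosome 8, 94152607 to 94154148) had 4.10, 3.33 and 2.79 CPM in mutants, against 6.64, 3.65 and 2.82 CPM in controls, with overlap, and log2 fold changes of -0.35 over the 6 libraries and -0.33 without mutant library 2. Per length of exon, the mutant levels of Mt2, Mt1 and Mt3 were 260 ± 277, 160 ± 83.1 and 6.33 ± 1.22 FPKM, against 306 ± 63.2, 225 ± 114 and 8.12 ± 3.73 FPKM in controls (SD, n = 3 each).

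**Figure D4:**
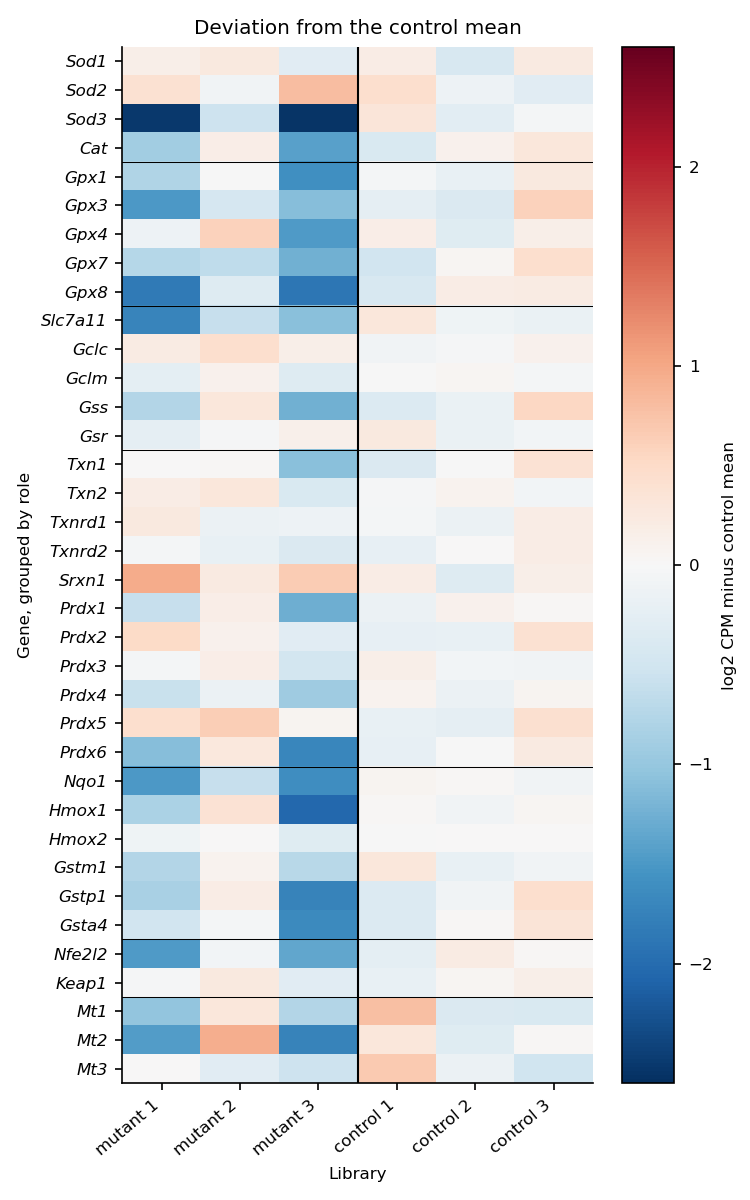
Log2 CPM of each gene minus its mean over the controls, with mutant libraries 1 to 3 to the left of the black line and control libraries 1 to 3 to the right, and genes grouped by role. Blue marks values below the control mean, and mutant libraries 1 and 3 are blue for all 5 glutathione peroxidases and all 6 genes of conjugation and of quinone and haem breakdown. The lowest value is -2.55, for Sod3 in mutant library 3, and mutant library 2 runs from -0.65 for Gpx7 to 0.94 for Mt2.

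Levels in the controls differed widely between the 36 genes. Per length, Sod1, Mt2, Gstm1, Mt1 and Prdx6 were the highest, at 558, 306, 289, 225 and 171 FPKM, and Txnrd2 the lowest at 3.53 FPKM. Prdx6 was close to Prdx1 at 166 FPKM, within the SD of 26.7 and 14.8 FPKM. Sod1 was above 99.8% of all genes tested, and Txnrd2 above 32.8%. In the controls the coefficient of variation ran from 1.02% for Hmox2 to 50.8% for Mt1, and in the mutants from 10.7% for Gclc to 106.5% for Mt2.

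In mutant libraries 1 and 3, where the antioxidant genes were lower, markers of several cell types of the nerve were lower too. Summed astrocyte markers were not lower there, but their medians were, at -0.38 and -0.37. Sum and median also differed for oligodendrocyte precursors. Their markers summed to 902 and 1112 CPM in mutant libraries 1 and 3, against 1079 to 1192 CPM in controls, with medians of -1.01 and -1.43. Over the 36 genes, the median of log2 CPM minus the control mean stood at -0.53, 0.11 and -1.01 in mutant libraries 1, 2 and 3, against -0.10 to 0.14 in the controls. Markers of myelin and oligodendrocytes stood at -1.97, 0.32 and -2.63 in the same mutant libraries, and those of fibroblasts and meninges at -2.65, -0.58 and -2.32. In the 6-library fit 0 of 15 oligodendrocyte and 0 of 12 fibroblast markers passed, and without mutant library 2 all 15 and all 12 fell. The 2 lists differed in mutant library 2. All 12 fibroblast markers (100%) were below every control in all mutant libraries, as was 1 of 15 oligodendrocyte markers (6.67%). The share over all genes tested was 11.5%. Oligodendrocyte markers summed to 5966, 36089 and 5026 CPM in mutants, against 27833 to 28901 CPM in controls. Fibroblast markers summed to 464, 2123 and 599 CPM in mutants, against 2648 to 3575 CPM in controls.

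Microglial markers had a median of -0.58, 0.38 and -1.24 in mutant libraries 1, 2 and 3, and summed to 364 to 924 CPM in mutants, against 689 to 905 CPM in controls. Without mutant library 2, 6 of 12 fell. Astrocyte markers, the genes of the cell type known for high Mt1, Mt2 and Prdx6, had medians of -0.38, -0.09 and -0.37, and summed to 6616 to 7555 CPM in mutants, against 6270 to 6512 CPM in controls. Of these 12, 1 rose and 4 fell without mutant library 2. Without mutant library 2, 8 of 9 markers of oligodendrocyte precursors, 8 of 10 of endothelium, 7 of 9 of pericytes and smooth muscle and 5 of 7 of macrophages fell. Of 7 tested Schwann cell markers, 2 rose and 3 fell in that fit. Over all genes tested there, 13.2% rose and 13.8% fell. Neuron markers rose in 7 of 10 cases in the 6-library fit, and summed to 7118, 2119 and 5477 CPM in mutants, against 675 to 1260 CPM in controls. Striatal neuron markers rose in 10 of 10 cases, and summed to 1435 to 2295 CPM in mutants, against 115 to 173 CPM in controls. Apart from the Schwann cell list, no marker of these lists was at 0 counts in any library. In the Schwann cell list 2 markers were at 0 counts in mutant library 2, and 1 each in mutant library 3 and control library 3. The part of cell makeup in the values of the 36 genes was not tested.

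**Figure D5:**
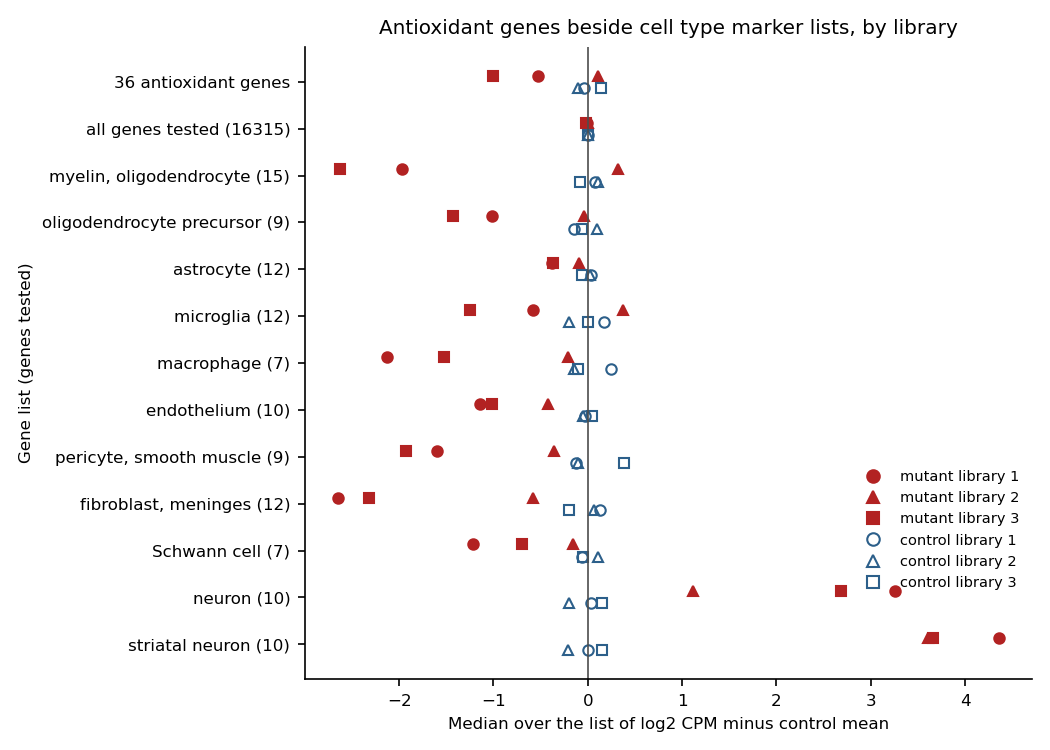
Median over each list of log2 CPM minus the control mean, 1 point per library, with mutants as filled red and controls as open blue symbols and the number of genes tested in brackets. The 36 antioxidant genes lie at -0.53, 0.11 and -1.01 in mutant libraries 1, 2 and 3, where the oligodendrocyte list lies at -1.97, 0.32 and -2.63 and the fibroblast list at -2.65, -0.58 and -2.32.

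Transcript length moved with mutant library 3. Genes tested with an exon length up to 1000 bases had a median deviation of -0.43 log2 units there, and those over 4000 bases had 0.21, while controls lay between -0.07 and 0.09 in both classes. Of the 36 genes, 9 were in the shortest class, with a median of -0.75 in mutant library 3, and 15 were longer than 1000 and at most 2000 bases, with a median of -1.24, against -0.24 for all genes of that length. The part of length in the values was not tested. Sex markers were of 1 kind in control library 2 and all mutants. Among those 4 libraries the median log2 fold change of the 36 genes was -0.21, Sod3 was at -1.26, Nqo1 at -1.20, Slc7a11 at -0.95 and Srxn1 at 1.00, and none passed. With a single control, the spread there rests on the mutants alone.

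Other genes of the same pathways, listed by role, gave 2 calls in the 6-library fit, where 2.95% of all genes passed higher and 0.337% lower. Of 20 tested genes of glutathione turnover, 1 rose, the peroxidase gene Gpx6. It had 65, 22 and 59 counts in mutants, against 0, 3 and 4 counts in controls (log2 fold change 4.87, SE 0.89, edgeR adjusted p 0.0246). A count of 0 in a library allows up to 3 counts. Summed neuron and striatal neuron markers were also higher in all mutants, and the part of cell makeup in Gpx6 was not tested. Of 12 tested genes that can produce superoxide or peroxide, 1 fell, Aox1, an aldehyde oxidase, with 8.20, 14.6 and 10.8 CPM in mutants, against 31.8, 32.3 and 27.9 CPM in controls (log2 fold change -1.46, SE 0.28, adjusted p 0.0301). The list had a median of -0.60. Of the 20 turnover genes 3 rose (15%) and 5 fell (25%) without mutant library 2, and of the 12 producers 0 rose and 4 fell (33.3%). Over all genes tested there, 13.2% rose and 13.8% fell.

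Of 20 further Nrf2 targets none passed, 18 were negative and the median was -0.52. Ephx1, a microsomal epoxide hydrolase, had a log2 fold change of -1.21 (adjusted p 0.131), the carbonyl reductase gene Cbr3 had 1.82 (adjusted p 0.17) and Pgd, of the pentose phosphate pathway, had -0.73 (adjusted p 0.253). Without mutant library 2, 9 of the 20 fell (45%) and 0 rose, against 13.8% and 13.2% of all genes tested there. Partners and regulators of Nrf2 had 0 of 11 passing, with a median of 0.11, Btrc at 0.43, Gsk3b at 0.55 and the repressor Bach1 at -0.39. Btrc and Gsk3b rose without mutant library 2, by 0.60 and 0.80 (edgeR adjusted p 0.0464 and 0.0151), 0 of the 11 fell, and the median was -0.04. The share that rose, 18.2%, compares with 13.2% of all genes tested there.

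Glutathione transferases outside the 36 had 0 of 15 tested passing, 14 negative and a median of -0.76, with Gstt1 at -0.86, Gstm6 at -1.13 and Mgst1 at -0.76 (adjusted p 0.139, 0.189 and 0.236). Of these 15, 7 fell (46.7%, against 13.8% of all genes tested there) and 0 rose without mutant library 2, with a median of -1.06. Other thioredoxin system genes had 0 of 14 passing, with Nxn at -1.02, Sesn3 at 0.76 and the methionine sulfoxide reductase gene Msra at 1.03. Selenoprotein genes had 0 of 13 passing, with Sepn1 at -0.94 (adjusted p 0.0659), the thyroid hormone deiodinase gene Dio2 at 2.24 (adjusted p 0.0803) and Sephs2 at 0.72. Metal handling genes had 0 of 15 passing, with the iron exporter Slc40a1 at -0.84, ceruloplasmin (Cp) at -1.38 and the zinc importer Slc39a8 at -0.74. The medians of these 3 lists were -0.48, 0.01 and -0.34. In the fit that left out mutant library 2, 2 rose (14.3%) and 5 fell (35.7%) among the 14 thioredoxin system genes. Among the 13 selenoprotein genes 1 rose (7.69%) and 2 fell (15.4%). Among the 15 metal handling genes 1 rose (6.67%) and 4 fell (26.7%). Over all genes tested there, 13.2% rose and 13.8% fell.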

How the data were processed

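Optic nerve RNA was amplified (NuGEN Ovation RNA-Seq System v2) before Nextera XT library preparation, per the labels' protocols. The authors deposited raw counts of fragments for each gene. These were counted by featureCounts (1.4.6-p4) in paired mode, over exons and ignoring strand, per the file headers. TopHat and mm10 are named in the submitters' processing notes. Counts were fitted with edgeR 4.0.16 (R 4.3.3): TMM scaling, filterByExpr (minimum count 10), quasi-likelihood F tests without covariates, and Benjamini-Hochberg adjustment over 16315 genes. Each SE was taken as the absolute log2 fold change over the root of the F statistic. Alternatives were other scalings and filters, DESeq2 1.42.0, limma-voom (limma 3.58.1), Xist as a covariate, the libraries with over 1000 Xist counts, and leaving out each library. All pairs of libraries differed beyond sampling noise. The edgeR steps were tested on simulated data with less spread than these libraries and no library set apart. That test does not show how the steps perform on these data. Similar transcripts were sought with blastn 2.17.0 (at least 95% identity over 200 bases, GENCODE M21). Of the 36 genes, 8 match a processed pseudogene and 4 a protein-coding gene, so their counts may be affected. Counting limits cover counting error only. Replicate numbers follow accession order and pair no samples. The 36 genes and all lists were chosen with earlier results of these data known. All 36 were named, and from each pathway list the genes that passed, or otherwise the 3 with the smallest p. Of the listed names, Sepx1 and Sels were not matched.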

Additional observations from a re-analysis of the deposited data

How the results depend on the processing

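No paired analysis was possible because the labels give no replicate numbers shared between the groups. The count of called genes, 537 over all genes and 0 of the 36, was 870 and 0 without a filter, 1657 and 3 by DESeq2, 4009 and 12 with quality weights, 1073 and 0 at an adjusted p under 0.10, and 0 and 0 with Xist as a covariate or in the libraries with high Xist alone. Leaving out each library gave 51 to 4551 genes over all and 0 to 16 of the 36, above 0 only without mutant library 2. The median log2 fold change of the 36, -0.39, stayed negative in all alternatives, from -0.75 to -0.16 when a library was left out. Several log2 fold changes near 0 changed sign, and so did the larger ones of Mt1 (-0.49), Mt3 (-0.35) and Mt2 (-0.23). Txnrd1 was 0.0080 with DESeq2 size factors, 0.00041 with a CPM filter, 0.0089 by DESeq2, 0.0020 by limma-voom and 0.14 with quality weights. Sod1 was -0.041 with upper quartile scaling and -0.0018 with total counts, and Txn2 -0.010 with upper quartile scaling and -0.028 with quality weights. With Xist as a covariate Gpx4 was 0.26, Gsr 0.11, Txn2 -0.0098, Txnrd1 0.17 and Mt2 0.11, and in the libraries with high Xist alone they were 0.23, 0.15, -0.035, 0.15 and 0.11, with Mt1 at 0.0077. When a library was left out the ranges were -0.14 to 0.17 for Sod1, -0.14 to 0.10 for Gsr, -0.066 to 0.25 for Txn2, -0.10 to 0.33 for Prdx2, -0.16 to 0.11 for Keap1, -1.60 to 0.17 for Mt2, -0.15 to 0.10 for Txnrd1, -0.66 to 0.27 for Gpx4, -0.24 to 0.066 for Prdx3, -0.99 to 0.020 for Mt1 and -0.59 to 0.083 for Mt3. The causes were not tested.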
